A study of Mus musculus with 10 samples.

Results

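The glucocorticoid response of the lung was followed through 10 genes, namely the glucocorticoid receptor gene Nr3c1 and 9 genes that the receptor is known to induce, Fkbp5, Tsc22d3, Zbtb16, Klf9, Cebpd, Errfi1, Sgk1 and the metallothioneins Mt1 and Mt2. They were found by symbol among the 24059 gene symbols of the count table, and all 10 were present. Fkbp5, Zbtb16, Errfi1 and Mt2 had been selected on their counts in these same mice, for how they differed between the diets, so their difference between the diets is described here without a test. The other 6 genes were listed for their known place in the pathway, with earlier results of these data in view.

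RNA-seq counts came from the whole lungs, flushed with PBS, of 10 female C57Bl/6 mice of 14 weeks, 5 fed a fish oil-enriched diet (FO) and 5 a coconut oil-enriched diet (CO) for 8 weeks. Both diets were high in fat (about 19% by weight). The study's methods give the same cholesterol content for both, while its listed composition has less in FO than in CO. Each difference is therefore one between whole diets, and no mice on a standard diet were analysed here. All mice underwent pulmonary function testing, anaesthetised, mechanically ventilated and exposed to methacholine, before their lungs were taken. The order and the time of day of these procedures for each mouse are not given in the sources used here.

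Glucocorticoids such as corticosterone, the main adrenal steroid of mice, enter cells and bind the glucocorticoid receptor, which waits in the cytosol in a complex with the chaperone Hsp90. The bound receptor moves to the nucleus and activates genes through DNA elements made of mirrored arms, and it also restrains inflammatory genes. In the lung the hormone drives maturation of the alveoli before birth and is the basis of the inhaled steroids used in asthma. Metallothioneins are small cysteine-rich proteins that bind zinc and copper, and their genes respond both to glucocorticoids and to zinc, the latter through the metal sensor Mtf1.

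The libraries were shallow, and this sets the resolution for each gene. Outside Rn45s, the precursor of ribosomal RNA, which took from 21.8% to 87.0% of the counts, between 45177 and 473254 counts were left per mouse. The deepest were FO mouse 2 (473254), CO mouse 4 (280686), CO mouse 5 (256386), FO mouse 1 (250422) and FO mouse 4 (235781), and the shallowest were CO mouse 1 (45177), FO mouse 3 (46470) and CO mouse 2 (55639). Levels below are CPM, counts scaled by TMM to a common library size in edgeR, and a single count stood for 0.764 CPM in FO mouse 2 but for 6.65 CPM in CO mouse 1. The 10 genes together held between 78 and 780 counts per mouse. FO mouse 2 and CO mouse 5 stood apart through the nuclear RNA Malat1, at 8.53% and 6.15% of the counts outside Rn45s against at most 1.05% in the other mice.

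The 5 alveolar type 2 markers summed to 1559 to 3412 CPM with fish oil and 939.5 to 2725 CPM with coconut oil. The 3 neutrophil markers found, of 4, summed to 43.6 to 287.7 CPM with fish oil and 26.6 to 42.6 with coconut oil. These ranges did not overlap, but their edges lay closer than 1 count, which stood for at least 1.05 CPM in the CO mice. The sum of the 4 adipocyte markers was 29.9 to 122.3 CPM with fish oil and 13.3 to 49.3 CPM with coconut oil. The sum of the 4 smooth muscle markers was 62.1 to 256.0 CPM with fish oil and 53.5 to 108.9 CPM with coconut oil. In each of the neutrophil, adipocyte and smooth muscle lists 1 marker was called higher with fish oil (unadjusted edgeR p under 0.05). The markers that passed the filter on low counts numbered 1, 1 and 2 in these lists. Of all genes tested, 1.68% were called higher, and no marker of the other cell types was called. The lymphocyte markers were at 0 in at least 1 mouse of each diet, and the alveolar type 1 marker Aqp5 and 4 of 5 erythroid markers were at 0 throughout. The share of neutrophils, fat cells or smooth muscle in the differences described below was not tested, and in whole lung fewer cells of a type and less RNA per cell cannot be told apart.

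The quasi-likelihood test of edgeR was run on the 2438 genes that passed the tool's default filter on low counts. Of the 10 genes 7 passed it, while Fkbp5, Zbtb16 and Sgk1 did not, and their estimates come from the same test on the 14161 genes with any count. Of the 6 genes that were not picked, 5 had estimates above 0, that is higher in the FO group, and 1, Nr3c1, below. Estimates above 0 were found for 50.6% of all genes tested and 54% of those with any count. In 0 of the 10 genes were the groups free of overlap, a pattern that 0.41% of the genes tested, and 0.346% of those with any count, showed. The 4 genes with an unadjusted edgeR p-value under 0.05 were the 4 that had been picked for their difference, so this count says nothing of the pathway. For comparison, 2.91% of the 2438 genes and 4.15% of the 14161 genes passed that threshold. After adjustment 0 of the 2438 genes and 1 of the 14161 (0.00706%) passed.

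**Figure D1:**
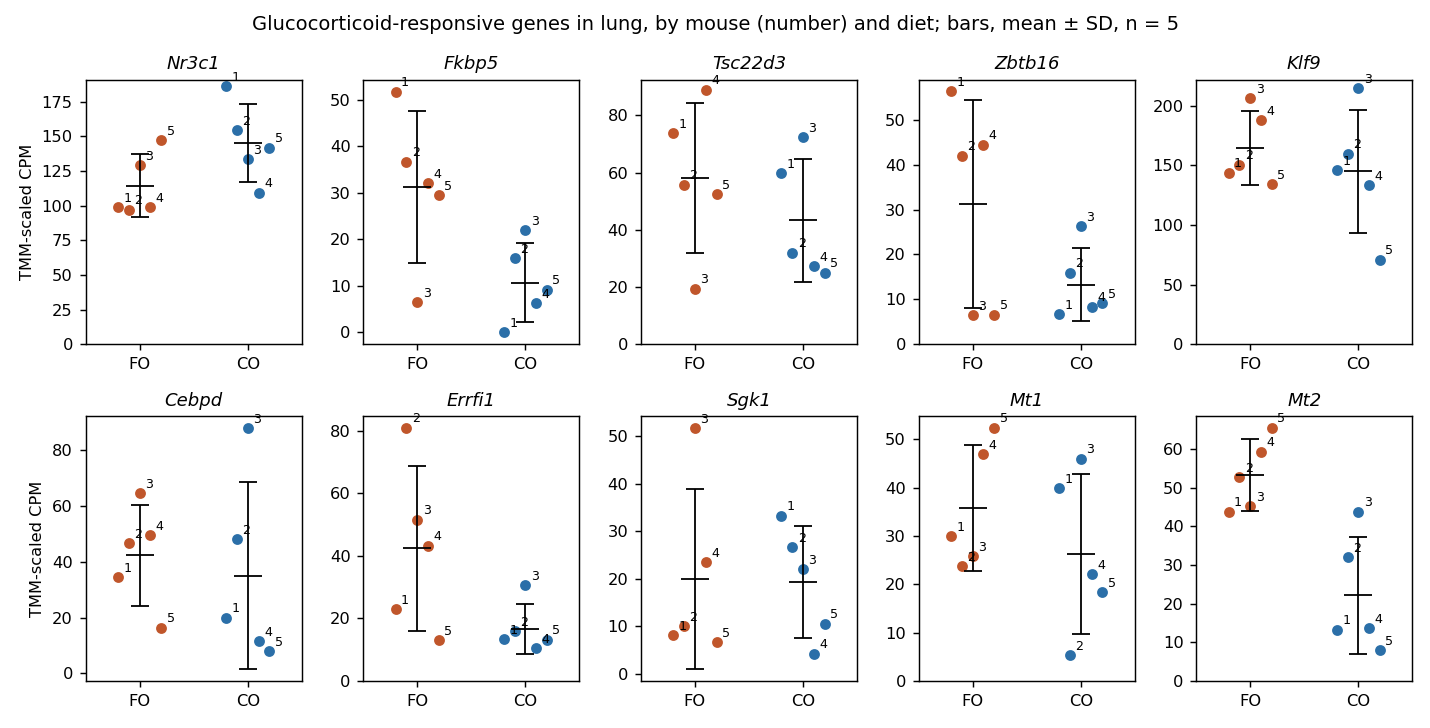
TMM-scaled CPM (y axis, linear) of each of the 10 genes in the 5 FO and 5 CO mice (points, labelled with the mouse number), with mean and SD as bars. Mt2 shows all 5 FO mice at or above 43.7 CPM and 4 of 5 CO mice at or below 32.0 CPM, while the groups overlap in every panel.

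Nr3c1, which encodes the receptor itself, lies on chromosome 18 from 39410545 to 39519421 (GRCm38, the build that mm10 names). Its level was 99.0, 97.1, 129.0, 98.8 and 147.3 CPM in FO mice 1 to 5 and 186.1, 154.5, 133.6, 109.2 and 141.7 CPM in CO mice 1 to 5. FO mice 1, 2 and 4 lay below every CO mouse, and CO mice 1 and 2 above every FO mouse. The means were 114.2 ± 22.8 CPM with fish oil and 145.0 ± 28.3 with coconut oil (SD, n = 5 each), and the log2 fold change was -0.34 (standard error, SE, 0.23). The difference did not pass the test (edgeR p = 0.153, adjusted p = 0.998, and two-sided exact permutation p = 0.079). Within diets the estimate was lower in deeper libraries, short of the adjusted threshold (Pearson r = -0.84, permutation p = 0.00527, adjusted p = 0.0527, Spearman rho = -0.82, permutation p = 0.00739, adjusted p = 0.0739, over 10 mice and 10 genes examined), and r was -0.79 without FO mouse 3 and CO mouse 1. The median number of counts outside Rn45s was 235781 among FO mice and 136211 among CO mice, and the part of depth in the difference between the diets was not tested.

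Fkbp5 encodes FKBP51, a co-chaperone that lowers the receptor's affinity for hormone and is itself strongly induced by it, forming a short negative feedback. The gene lies on chromosome 17 from 28398753 to 28486149. Its counts were 45, 48, 1, 26 and 9 in FO mice 1 to 5 and 0, 3, 10, 6 and 7 in CO mice 1 to 5. Scaled to depth, these were 51.8, 36.7, 6.45, 32.1 and 29.5 CPM among FO mice and 0, 16.0, 21.9, 6.30 and 9.19 CPM in the CO group. FO mice 1, 2, 4 and 5 lay above every CO mouse, and FO mouse 3, one of the shallow libraries, lay among the CO mice on a single count. The 0 counts of CO mouse 1 allow a level of up to 19.9 CPM, that of 3 counts. This mouse therefore cannot be placed below FO mouse 3 or CO mice 2, 4 and 5. The means were 31.3 ± 16.4 CPM and 10.7 ± 8.51 CPM (SD, n = 5), and the fit to genes with any count gave a log2 fold change of 1.67 (SE 0.43).

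Tsc22d3, also known as Gilz, encodes a leucine zipper protein that carries part of the anti-inflammatory action of glucocorticoids by binding factors such as NF-kappa B. It lies on chromosome X from 140539528 to 140600522. FO mice 1 to 5 had 73.6, 55.8, 19.4, 88.9 and 52.4 CPM, and CO mice 1 to 5 had 59.8, 32.0, 72.3, 27.3 and 24.9 CPM. The highest values were those of FO mice 4 and 1, but the lowest of all was that of FO mouse 3, with 3 counts. With 58.0 ± 26.1 CPM against 43.3 ± 21.4 CPM (SD, n = 5), the log2 fold change was 0.59 (SE 0.36) and did not pass the test (edgeR p = 0.119, adjusted p = 0.998, and exact permutation p = 0.452). CO mouse 3 decided on which side of the threshold Tsc22d3 lay, since without this mouse the log2 fold change was 0.94 and passed before adjustment.

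Among the transcription factors, Zbtb16, also known as Plzf, is a zinc finger repressor that guides stem cell and lymphocyte fate and is among the genes most sharply induced by glucocorticoids in many cells. It lies on chromosome 9 from 48651797 to 48836225. It had 49, 55, 1, 36 and 2 counts in FO mice 1 to 5 and 1, 3, 12, 8 and 7 counts in CO mice 1 to 5. The corresponding levels were 56.4, 42.0, 6.45, 44.5 and 6.55 CPM, and 6.65, 16.0, 26.3, 8.40 and 9.19 CPM. FO mice 1, 2 and 4 lay above every CO mouse. The values of FO mice 3 and 5 rest on 1 and 2 counts, where the floor of 3 counts would be 19.4 and 9.82 CPM. At this floor neither can be placed below CO mice 1, 4 and 5, nor FO mouse 3 below CO mouse 2. The means were 31.2 ± 23.2 CPM and 13.3 ± 8.08 CPM (SD, n = 5), and the log2 fold change was 1.48 (SE 0.42) among genes with any count.

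Klf9, a Kruppel-like factor that responds to glucocorticoids and thyroid hormone, had the most counts of the 10 genes, 547 counts among FO mice and 331 in the CO group. On chromosome 19 from 23141226 to 23168129, its level ran from 134.3 to 206.5 CPM among FO mice and from 70.9 to 214.7 CPM in the CO group. The CO range enclosed the FO range. The log2 fold change was 0.19 (SE 0.27, edgeR p = 0.498, adjusted p = 0.998, exact permutation p = 0.516). Cebpd, a basic leucine zipper factor of acute phase and alveolar gene expression, lies on chromosome 16 from 15887286 to 15889545 and shares exon bases with Spidr on the other strand, and the strand setting of the counting is not given in the sources used here. Cebpd had 34.5, 46.6, 64.5, 49.4 and 16.4 CPM in FO mice 1 to 5 and 19.9, 47.9, 87.6, 11.5 and 7.88 CPM in CO mice 1 to 5. CO mouse 3 was the highest of all mice and CO mice 4 and 5 were the lowest. The log2 fold change was 0.34 (SE 0.53, edgeR p = 0.532, adjusted p = 0.998, exact permutation p = 0.413), and it was 1.33 without CO mouse 3, which passed before adjustment.

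Errfi1 and Sgk1 act in signalling. Errfi1, also known as Mig6, encodes an inhibitor of the epidermal growth factor receptor, and lies on chromosome 4 from 150853796 to 150868889. It had 20, 106, 8, 35 and 4 counts in FO mice 1 to 5 and 2, 3, 14, 10 and 10 counts in CO mice 1 to 5. These gave 23.0, 81.0, 51.6, 43.2 and 13.1 CPM among FO mice and 13.3, 16.0, 30.7, 10.5 and 13.1 CPM in the CO group. FO mice 2, 3 and 4 lay above every CO mouse, with FO mouse 2, one of the Malat1-rich libraries, the highest. The means were 42.4 ± 26.5 CPM and 16.7 ± 8.04 CPM (SD, n = 5), and the log2 fold change was 1.42 (SE 0.45). The gene lay near the filter, and it did not pass in 5 of the 10 fits that left out a mouse, those without FO mouse 1, 2 or 4 or CO mouse 3 or 5.

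Sgk1 encodes a kinase that raises sodium channel activity at the surface of epithelia, the lung included. It lies on chromosome 10 from 21882184 to 21999903. Its counts were the fewest of the 10 genes, at 7, 13, 8, 19 and 2 in FO mice 1 to 5 and 5, 5, 10, 4 and 8 in CO mice 1 to 5. The highest level, 51.6 CPM, was that of FO mouse 3 on 8 counts, and the groups overlapped over most of their range. With 19.9 ± 19.0 CPM against 19.3 ± 11.8 CPM (SD, n = 5), the log2 fold change was 0.09 (SE 0.48, edgeR p = 0.849, adjusted p = 0.995, exact permutation p = 0.921). Leaving out single mice moved the estimate between -0.26 and 0.33, so its direction depended on single mice.

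Of the genes with a promoter sequence, Sgk1 alone had a full receptor element next to a start. In the RefSeq promoter windows (GRCm38.p6, from 250 bases before to 50 after an annotated start), 7 of the 10 genes had at least 1 window, 15 windows in all. A full palindromic element, AGAACA and TGTTCT with 3 bases of any kind between them, which reads alike on both strands, was searched for in them and in all 32851 windows of the table. It was present in 3 of the 32851, or 0.00913%, and 1 of the 3 was a window of Sgk1, at chr10:21993640-21993939 on the plus strand. The window is shown because it holds the element, which is in capitals.

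Sgk1: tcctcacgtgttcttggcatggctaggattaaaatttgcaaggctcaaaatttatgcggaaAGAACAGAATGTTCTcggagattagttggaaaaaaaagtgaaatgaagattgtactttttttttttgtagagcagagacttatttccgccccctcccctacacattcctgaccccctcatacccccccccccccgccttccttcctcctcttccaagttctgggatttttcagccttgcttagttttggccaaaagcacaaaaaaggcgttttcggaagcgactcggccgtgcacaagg

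A single arm, AGAACA, on either strand was present in 19% of all windows and, of these genes, in windows of Sgk1 and Tsc22d3. A full element counts as a pair of single arms. These are matches of letters in short windows next to the start, and the counts of Sgk1 in these mice do not distinguish its starts.

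The metallothioneins Mt2 and Mt1 lie side by side on chromosome 8, Mt2 from 94172618 to 94173567 and Mt1 from 94178883 to 94180327, with 5315 bases between them. Their transcripts had no stretch of 25 bases in common in the GENCODE annotation, so reads should tell them apart. Mt2 shares exon bases with Gm45774 on the other strand, a symbol that the count table does not list. Mt2 had 38, 69, 7, 48 and 20 counts in FO mice 1 to 5 and 2, 6, 20, 13 and 6 counts in CO mice 1 to 5. The levels were 43.7, 52.7, 45.2, 59.3 and 65.5 CPM among FO mice and 13.3, 32.0, 43.8, 13.6 and 7.88 CPM in the CO group. The FO mice lay close together, and CO mouse 3 alone among the CO mice reached their range, just above FO mouse 1. The means were 53.3 ± 9.26 CPM and 22.1 ± 15.2 CPM (SD, n = 5), and the log2 fold change was 1.36 (SE 0.39).

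Mt1 differed less. It had 26, 31, 4, 38 and 16 counts in FO mice 1 to 5 and 6, 1, 21, 21 and 14 counts in CO mice 1 to 5, or 29.9, 23.7, 25.8, 46.9 and 52.4 CPM and 39.9, 5.33, 46.0, 22.0 and 18.4 CPM. CO mice 1 and 3 lay within the FO range and the other CO mice below it. The means were 35.8 ± 13.0 CPM and 26.3 ± 16.5 CPM (SD, n = 5), and the log2 fold change was 0.44 (SE 0.39), which did not pass the test (edgeR p = 0.266, adjusted p = 0.998, and exact permutation p = 0.310). Within a mouse, where scaling cancels, Mt2 made up from 55.6% to 69.0% of the counts of both genes in the FO group. In CO mice 1 to 5 it made up 25%, 85.7%, 48.8%, 38.2% and 30% of them. Since Mt2 had been picked for its difference between the diets, a difference in this share partly restates that choice. The outlying 85.7% of CO mouse 2 rested on 7 counts (95% exact Clopper-Pearson interval 42.1% to 99.6%, for counting error only), while CO mouse 4 had 34 (22.2% to 56.4%).

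The start regions of Mt1 and Mt2 are shown because metallothionein genes are known to respond to zinc through metal response elements. The core of that element was searched for as TGCACNC or TGCGCNC on both strands. The RefSeq windows (GRCm38.p6, plus strand) are chr8:94172368-94172667 for Mt2 and chr8:94178839-94179138 for Mt1, with the matches in capitals.

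Mt2: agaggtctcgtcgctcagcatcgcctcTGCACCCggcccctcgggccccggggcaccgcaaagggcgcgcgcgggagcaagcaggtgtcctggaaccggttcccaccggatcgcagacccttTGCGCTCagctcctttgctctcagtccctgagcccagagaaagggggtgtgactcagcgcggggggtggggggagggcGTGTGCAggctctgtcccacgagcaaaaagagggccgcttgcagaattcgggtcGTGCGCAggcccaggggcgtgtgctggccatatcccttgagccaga

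Mt1: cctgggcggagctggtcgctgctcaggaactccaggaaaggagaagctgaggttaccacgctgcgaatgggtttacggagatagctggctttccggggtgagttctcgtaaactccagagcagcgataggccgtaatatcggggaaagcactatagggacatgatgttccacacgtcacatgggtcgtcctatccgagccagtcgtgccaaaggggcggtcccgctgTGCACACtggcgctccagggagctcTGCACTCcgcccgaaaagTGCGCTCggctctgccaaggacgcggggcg

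The Mt2 window held 4 matches and the Mt1 window 3. At least 3 matches were present in 1.97% and at least 4 in 0.517% of all 32851 windows, and at least 1 in 25.7%. Among the other genes with a window only Sgk1 had a match, 1, in another of its windows than the one shown. The full receptor element was in neither metallothionein window.

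Per length of exon and over both diets, the mean levels of the 10 genes ran from Mt2 down to Fkbp5. Mt2 had 64.1 ± 34.4 CPM per kilobase of exon (SD over all 10 mice), Klf9 32.1 ± 8.62, Mt1 24.9 ± 12.0 and Nr3c1 16.9 ± 3.79. Tsc22d3 and Cebpd followed at 11.7 ± 5.49 and 10.3 ± 6.82 CPM per kilobase, and Errfi1 at 8.25 ± 6.39. The lowest levels were those of Zbtb16 (4.21 ± 3.57), Sgk1 (3.999 ± 3.04) and Fkbp5 (2.22 ± 1.73 CPM per kilobase). Of the 9 pairs of neighbours in this order, 7 were closer than 1 SD of their log2 ratio over the mice, and the other 2 were Mt2 with Klf9 and Errfi1 with Zbtb16. Parts of the order differed between the diets. Mt2, Zbtb16 and Fkbp5 had been picked for their difference between the diets, so their shifts in order restate that choice. Mt2 was above Klf9 in 5 of 5 FO mice but in 2 of 5 CO mice, with 90.6 ± 15.7 and 34.2 ± 6.43 CPM per kilobase with fish oil against 37.6 ± 25.8 and 30.1 ± 10.7 with coconut oil (SD, n = 5). Zbtb16 was above Sgk1 in the FO means (5.90 and 4.06 CPM per kilobase) and below it in the CO means (2.52 and 3.94). By mouse it was above Sgk1 in 3 of 5 FO mice and 2 of 5 CO mice. Sgk1 was above Fkbp5 in 2 of 5 FO mice and 5 of 5 CO mice. Among genes that were not picked, Nr3c1 was above Tsc22d3 in 2 of 5 FO mice and 5 of 5 CO mice. Mt1 was above Nr3c1 in 5 of 5 FO mice and 3 of 5 CO mice. None of these 3 genes passed the test between the diets. Exon lengths merged all exons that GENCODE vM21 lists for a gene, and the annotation of the counting is not given in the sources used here. Merging gave Mt1 1 exon of 1246 bases and Mt2 3 exons of 588 bases together. The place of Mt1 in the order depends on this length, and a shorter one would raise its level.

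**Figure D2:**
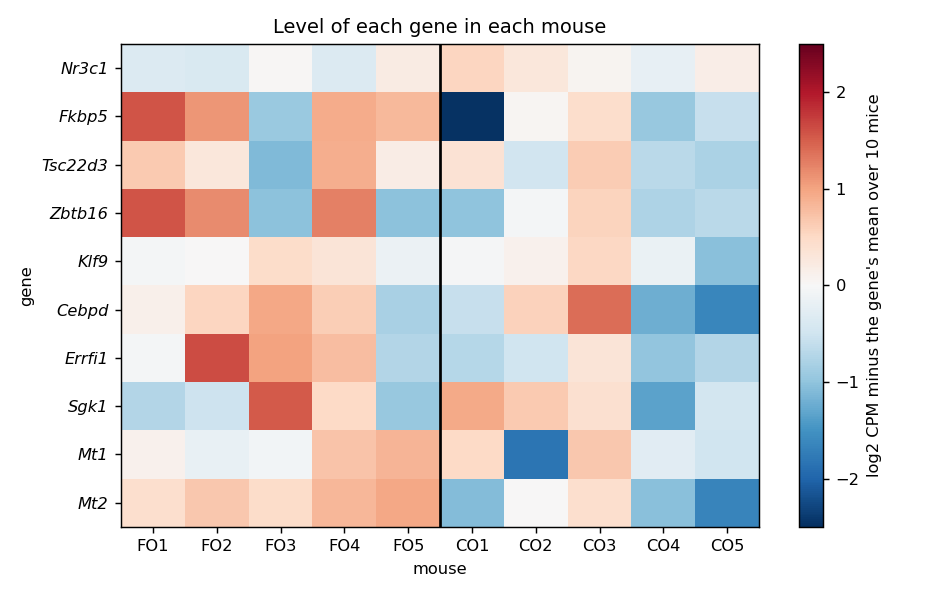
Level of each gene (rows) in each mouse (columns, FO left and CO right of the line), as log2 CPM minus the gene's mean over the 10 mice (colour). CO mouse 3 is the highest of the CO mice in 8 of 10 genes, while CO mouse 4 is among the lowest pair of its diet in 8 genes and CO mouse 5 in 7.

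Read by mouse, the ranks over these 10 genes were more uneven in the CO group than in the FO group. How often a mouse takes such ranks over all genes was not computed, so the order is not read as particular to these genes. CO mouse 3 had the highest level among the CO mice in 8 of the 10 genes. CO mouse 2 was among its diet's highest pair in 8 of them. CO mouse 4 was among the lowest pair in 8 and CO mouse 5 in 7, and neither was among the highest pair in any gene. The 10 genes together took 0.234% of the counts outside Rn45s in CO mouse 3 against 0.118% and 0.0932% in CO mice 4 and 5, and from 0.165% to 0.232% in the FO mice. CO mice 4 and 5 also had the lowest shares of Rn45s in their diet (21.8% and 51.7%) and its largest TMM scaling factors (3.21 and 1.60). The part of these traits in the differences was not tested. In the FO group FO mouse 4 was among the highest pair in 7 genes and FO mouse 5 among the lowest pair in 7.

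Variation between mice of the same diet was examined for Fkbp5 with each other gene and for Mt1 with Mt2, 10 pairs in all, on log2 CPM centred on the diet mean. Fkbp5 and Zbtb16 had the highest correlation of the 10 pairs (Pearson r = 0.72, Spearman rho = 0.88). Both were picked for their pattern in these mice, so the value is a description without a test, as are those of Fkbp5 with Mt2 (r = 0.51) and with Errfi1 (r = 0.08). Mice with more Fkbp5 than their diet's mean, such as FO mice 1, 2 and 4 and CO mice 2 and 3, also had more Zbtb16, with FO mouse 5 and CO mouse 5 as exceptions. Without FO mouse 3 and CO mouse 1, the mice farthest from the median, r was 0.67. With depth, the log2 of the counts outside Rn45s, they had r = 0.55 and 0.58 (adjusted permutation p = 0.322 for each over the 10 genes), or -0.32 and 0.30 without those mice, and the part of depth in their correlation was not tested.

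The 7 pairs with a gene that was not picked did not pass. Fkbp5 correlated with Tsc22d3 at r = 0.42, with Cebpd at 0.23, with Klf9 at -0.03, with Mt1 at -0.16, with Sgk1 at -0.46 and with Nr3c1 at -0.50 (permutation p from 0.175 to 0.945, adjusted from 0.501 to 0.945). Mt1 and Mt2, although neighbours, correlated at only 0.07 (permutation p = 0.929). FO mouse 3 and CO mouse 1 bore heavily on several of the Fkbp5 correlations, since without them Fkbp5 correlated with Cebpd at 0.81, with Sgk1 at 0.60 and with Klf9 at 0.54. For Mt1 with Mt2 the mice left out were CO mice 2 and 3, and r was then 0.29.

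**Figure D3:**
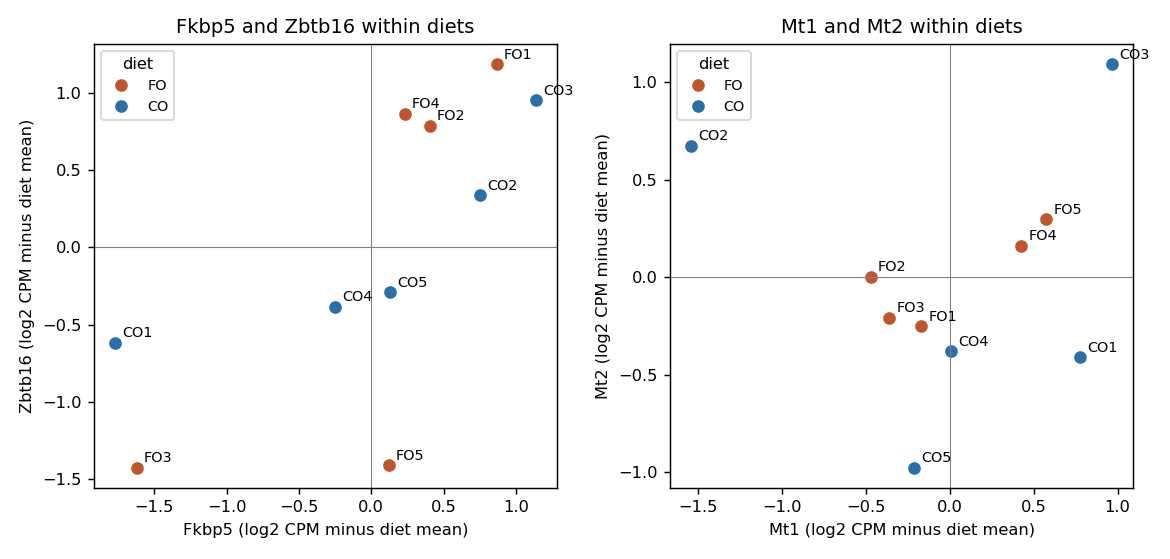
Log2 CPM minus the diet mean of Fkbp5 (x) and Zbtb16 (y) on the left and of Mt1 (x) and Mt2 (y) on the right, a point for each mouse, coloured by diet. The left panel rises (r = 0.72 over 10 mice), and the right panel shows no trend (r = 0.07).

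Beyond these genes, 30 other genes widely known to be induced by glucocorticoids were listed, all with counts. Only 9 passed the filter, and 0 of them passed the edgeR test at an unadjusted p-value under 0.05 (0 also with DESeq2), where 1.68% of all genes tested were called higher and 1.23% lower. Their log2 fold changes had a median of 0.19, with 7 above 0 and 2 below, against a median of 0.00 over all genes tested. Among the 30 with any count the edgeR fit called 0, and 22 were above 0 with a median of 0.35, against 0.05 over all genes with any count. Txnip, which inhibits thioredoxin and glucose uptake, had 226.9 ± 26.1 CPM with fish oil and 265.4 ± 95.8 with coconut oil, and the log2 fold change was -0.24 (SE 0.24). Nfkbia, the inhibitor of NF-kappa B, had 261.3 ± 72.9 and 229.2 ± 114.3 CPM, and the log2 fold change was 0.20 (SE 0.30). Tgm2, a transglutaminase, was at 134.5 ± 49.7 and 125.8 ± 25.5 CPM (log2 fold change 0.04). Per1, a clock gene with a receptor element of its own, did not pass the filter and had 12.7 ± 6.94 CPM with fish oil and 15.9 ± 10.2 with coconut oil (log2 fold change -0.20, SE 0.50, edgeR p = 0.694, adjusted p = 0.995, exact permutation p = 0.595).

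Of 24 genes for the receptor's chaperones, cofactors and hormone-converting enzymes, 13 passed the filter and 0 passed the edgeR test (0 also with DESeq2), where 2.91% of all genes tested did, with 8 log2 fold changes above 0, 5 below and a median of 0.01. By the exact permutation test on log2 CPM, before adjustment, 3 of the 21 with a count had p under 0.05, named after their values were seen. These were the kinase co-chaperone Cdc37 (77.3 ± 15.2 and 99.9 ± 10.7 CPM, exact p = 0.0317), the Mediator subunit Med1 (15.8 ± 5.87 and 28.1 ± 5.93 CPM, exact p = 0.0159) and the coactivator Ncoa1 (19.1 ± 4.20 and 11.5 ± 4.97 CPM, exact p = 0.0397), fish oil first. By the same test 1 of the 30 induced genes (Foxo1), 1 of the 12 repressed genes with a count (Ccl2) and 0 of the 17 zinc handling genes did. The share of all genes under this threshold by the exact test was not computed. These counts therefore have no background and are not read as results about the lists. Hsp90ab1, the constitutive Hsp90 that holds the receptor ready for hormone, had 1327 ± 337.4 CPM with fish oil and 1313 ± 400.1 with coconut oil (log2 fold change 0.01, SE 0.26). Ncor1, a corepressor, had 250.5 ± 110.8 and 281.5 ± 94.0 CPM (log2 fold change -0.16), and the co-chaperone Bag1 had 139.4 ± 35.3 and 161.2 ± 52.6 CPM (log2 fold change -0.24). Hsd11b1, the enzyme that regenerates active corticosterone inside cells, had 21.3 ± 10.9 and 18.2 ± 6.44 CPM and did not pass the filter (log2 fold change 0.35, SE 0.44, edgeR p = 0.429, adjusted p = 0.966, exact permutation p = 0.675). The mineralocorticoid receptor gene Nr3c2, whose product binds the same hormone, had 4 counts in each diet group, too few for a comparison.

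Zinc handling was followed through 19 genes, of which 17 had a count and 2 passed the filter, with 0 called by edgeR (0 with DESeq2). The transporter genes Slc30a9 and Slc39a7 had log2 fold changes of -0.21 (SE 0.31) and 0.16 (SE 0.36). Mtf1, the zinc sensor that activates metallothioneins, had 20 counts among FO mice and 26 in the CO group, or 8.41 ± 6.77 and 8.49 ± 8.13 CPM (log2 fold change -0.56, SE 0.61, edgeR p = 0.361, adjusted p = 0.952, exact permutation p = 0.857, in the fit to genes with any count). In that fit 1 of the 17 was called higher, where 2.58% of all genes were. This was Slc39a14, named after its values were seen, on 7 counts among FO mice and 0 in the CO group.

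Of 16 inflammatory genes that glucocorticoids repress, 12 had a count and 0 passed the filter. In the fit to genes with any count 3 had an unadjusted edgeR p-value under 0.05, where 2.58% of all genes did so higher and 1.57% lower. These were the chemokine genes Ccl2 and Cxcl1, with 5 counts each among FO mice and 0 in the CO group, and Ccl4, with 0 and 3 counts, named after their values were seen. The cytokine gene Il1b, also named after its values were seen, had 30 counts among FO mice and 8 in the CO group (log2 fold change 1.37, SE 0.72, edgeR p = 0.0583, adjusted p = 0.905, exact permutation p = 0.111). At this depth no direction of the repressed genes was detectable.

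**Figure D4:**
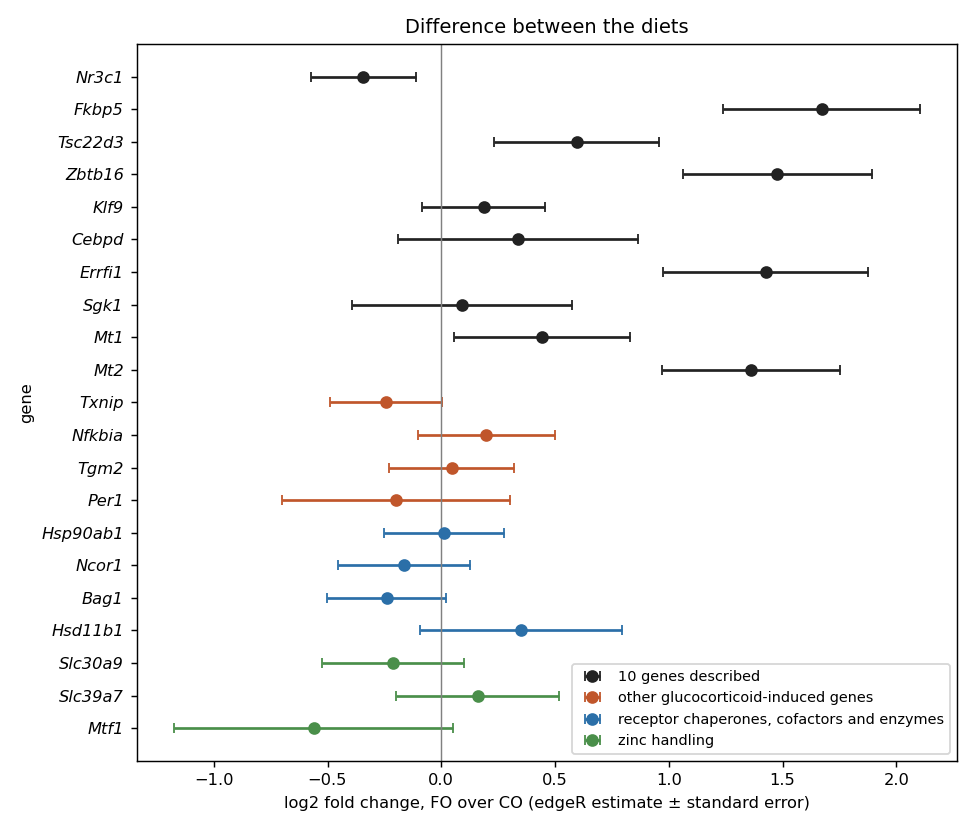
Log2 fold change of FO over CO (x axis, edgeR estimate with its standard error as bar) of the 10 genes and of the named genes for other glucocorticoid-induced genes, receptor partners and zinc handling (rows). Fkbp5, Zbtb16, Errfi1 and Mt2, picked for this difference, lie between 1.36 and 1.67, and Nr3c1 lies at -0.34.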

How the data were processed

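Lung RNA of 10 mice, 5 per diet, was analysed, with diets taken from the sample labels. The counts per gene symbol, unnormalized as the authors deposited them, came from single-end reads aligned with STAR 2.4.0f1 to mm10, sorted with SAMtools 0.1.19 and counted with htseq-count. Libraries were made with TruSeq RNA v2 or riboZero, and which mouse had which is not given in the sources used here. All 10 columns were used.

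The diets were compared with edgeR 4.0.16 in R 4.3.3 (TMM, default filter, minimum count 10, minimum total 15, quasi-likelihood test), with Benjamini-Hochberg adjustment over all genes tested. Calls were made at p under 0.05 before adjustment, as in the study, which used DESeq2. CPM were scaled to the effective library sizes of that fit, also for genes outside the filter, and log2 CPM used a prior count of 2. Single genes were tested on log2 CPM with exact permutation over the 252 assignments of mice, and correlations with 100000 permutations within diets. The floor of a mouse was 3 counts. The members and the 4 other gene lists were chosen with earlier results of these data known. Of each list, genes called in the main test and the 3 most abundant tested genes were named, and Nr3c2, Hsd11b1, Mtf1 and Per1 in any case. The scripts were tested on simulated data. Depth ranged from 229766 to 1124963 counts per mouse. The alternatives were DESeq2 1.42.0, RLE scaling, library size alone, other filters, robust estimation, limma-voom (limma 3.58.1), leaving out Rn45s, FO mouse 2 with CO mouse 5 or each mouse, and the replicate number as a block. DESeq2 on all genes with any count and correlations with depth were added after seeing the data.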

Additional observations from a re-analysis of the deposited data

Results flagged for a closer look

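In 24 groups of 5 mice, formed by the 10 genes, the share of Rn45s and the share of Malat1 within each diet, 3 had a highest or lowest mouse that stood apart by Dixon's ratio above 0.71, where chance gives about 1.2. Errfi1 in CO mouse 3, at 30.7 CPM, stood above the other CO mice, which lay between 10.5 and 16.0 CPM. Malat1 stood apart in FO mouse 2 at 8.53% and in CO mouse 5 at 6.15% of the counts outside Rn45s.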

How the results depend on the processing

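Of the picked genes, Fkbp5 had log2 fold changes from 1.34 to 1.72 over 8 alternatives, Zbtb16 from 1.06 to 1.52, Errfi1 from 0.95 to 1.42 and Mt2, over 9, from 0.997 to 1.54. Leaving out each mouse gave 1.42 to 2.15, 1.20 to 1.96, 1.21 to 1.59 (Errfi1 passed the filter in 5 of these 10 fits) and 1.07 to 1.91. Scaling by library size alone, which moved the median of all genes to -0.55, lowered the members past the threshold from 4 to 0. The filter of at least 10 counts in every mouse kept 2 members and called 0. Library size alone also turned Mt1 to -0.057, Sgk1 to -0.30 and Klf9 to -0.34, each still above that median, limma-voom turned Sgk1 to -0.18, and leaving out FO mouse 2 and CO mouse 5 together turned Cebpd to -0.052. Over single mice left out, Sgk1 ran from -0.26 to 0.33, Klf9 from -0.0066 to 0.39 and Cebpd from -0.0011 to 1.33. The members called then ran from 3 of 9 to 5 of 9, the latter without CO mouse 3. Each fit with 3 called was one in which Errfi1 missed the filter. These counts rest largely on the genes picked for this difference.

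Genes called in all numbered 71, against 36 with library size alone, 587 with any count, 15 with at least 10 counts in every mouse, 117 with limma-voom, 138 with DESeq2 on any count, and from 54 to 154 with a mouse left out (154 without FO mouse 2). Glucocorticoid-induced genes called were 1 without Rn45s and from 0 to 1 with a mouse left out. Receptor partners called were 1 with limma-voom, 1 without Rn45s and from 0 to 1 with a mouse left out. Zinc handling genes called were 1, and repressed genes 3, with any count. With library size alone Fkbp5 correlated with Zbtb16 at 0.83 and with Mt2 at 0.81, all picked for their pattern and described without a test. In that setting Fkbp5 correlated with Mt1 at 0.46, with Klf9 at 0.65 and with Nr3c1 at 0.58. The pairs with a gene that was not picked stayed short of the adjusted threshold (smallest adjusted permutation p = 0.083). Fkbp5 and Klf9 correlated at 0.00051 without Rn45s and at a rho of 0.13, and without FO mouse 3 and CO mouse 1 Fkbp5 correlated with Sgk1 at 0.60, with Klf9 at 0.54 and with Nr3c1 at 0.094. The cause of these changes was not tested.

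Same-numbered mice are different animals, and their deviations from the diet means correlated at -0.12 on average (from -0.41 to 0.03 over 5 pairs). Adding the replicate number to the fit as a block, 55 genes were called, and 4 members. Depth limits all of this, since 3 counts stood for up to 19.9 CPM.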
